A study of Rattus norvegicus with 12 samples.

Results

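Ketogenesis and the lipid genes that fasting induces in the liver were followed in 12 rat livers preserved in 4 ways, through 8 genes taken by name from the 33744 genes of the deposited table. They are Cpt1a, Bdh1, Pdk4, Fgf21, Angptl4, Apoa4, Plin2 and Ppara. All 8 passed the filter on low counts and were among the 13687 genes tested. Their lowest raw count in any liver was 75 (Fgf21) and their highest 20147 (Cpt1a). The fed or fasted state of the rats at procurement is not stated, so the name of the set describes what these genes are known for and not a state of these animals.

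In fasting, fatty acids released from fat tissue enter liver mitochondria, are cut to acetyl-CoA and leave the liver as the ketone bodies acetoacetate and 3-hydroxybutyrate. The nuclear receptor PPARα, encoded by Ppara, binds fatty acids as ligands and, with its partner RXR, switches on the genes of this route together with secreted factors such as Fgf21 and Angptl4. Many of the same genes also answer to glucocorticoid, to the kinase and transcription factor programmes of amino acid shortage, and to the daily clock, so that their level in a liver is known to vary with the state and the hour at which it is taken.

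All livers came from male Sprague Dawley rats of 6 to 8 weeks, on standard chow, and all went through 30 min of warm ischemia in the body after cardiac arrest, as a model of donation after circulatory death (DCD). The livers of the WI 30 min group had no further treatment. Livers of the SCS 4 h group then had 4 h of static cold storage in HTK solution, while the livers of HMP 1 h and of HOPE 1 h were stored cold for 3 h and then machine-perfused for 1 h with HTK solution through the portal vein at 4 °C, with oxygenation in HOPE 1 h alone. There were 3 livers in each group, so that no liver without warm ischemia was measured, and the perfused livers (those of HMP 1 h or HOPE 1 h) differed from the unperfused livers (those of WI 30 min or SCS 4 h) also in their hours of cold storage. The labels name replicates without saying that each is a separate animal, and p-values measure the spread between these samples. Total counts ran from 15262961 to 18343167 per liver. The share of counts from mitochondrial DNA was 4.79% to 10.2% in 11 livers and 18.7% in HMP 1 h liver 1, and this liver and HOPE 1 h liver 3 also had the highest summed levels of Kupffer cell and sinusoidal endothelial markers, so the genes called in perfused against unperfused livers and the marker lists are also given without them. The 9 hepatocyte markers in the table summed to between 146145 and 225081 CPM in every liver.

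The stretch before the start of a gene is shown because PPARα, clock factors and CREB factors act through short motifs there. RefSeq promoter windows of 300 bases (250 before the start and 50 after it, build GRCr8) were found for all 8 genes, with 9 windows in all because Plin2 has more than 1 start. The nuclear receptor motif AGGTCA, read on both strands, stood in 16.2% of all 33469 rat windows and in none of those of the 8 genes. Its tandem form AGGTCANAGGTCA, the textbook PPAR response element, stood in 0.0538% of all windows and in none of theirs. The E-box CACGTG, the motif of the clock factors, stood in 6.42% of all windows and in those of Fgf21 and Plin2, with its first base 54 and 67 bases before the start. The CREB motif TGACG stood in 21.2% of all windows and in those of Fgf21 (1 match, 72 bases before the start) and Apoa4 (2 matches, at 4 bases before and 35 after it). None of these motifs contains another except that the tandem form holds AGGTCA, and an absent match says only that these letters are not in these windows. The lines give the 100 bases before and 20 after the start for the 2 genes with motifs of the clock type and the 2 genes that DESeq2 called in any comparison (Apoa4 and Cpt1a), 5′ to 3′ on the gene's strand in GRCr8, with matches to the E-box and the CREB motif in capitals (the latter reads CGTCA where it lies on the other strand):
Apoa4, chr8:55435679-55435798, plus strand: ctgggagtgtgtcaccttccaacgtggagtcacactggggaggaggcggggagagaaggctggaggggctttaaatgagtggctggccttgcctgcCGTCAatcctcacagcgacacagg
Cpt1a, chr1:209996060-209996179, plus strand: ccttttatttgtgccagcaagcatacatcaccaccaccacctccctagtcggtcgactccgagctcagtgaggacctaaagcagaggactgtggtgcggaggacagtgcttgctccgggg
Fgf21, chr1:105221357-105221476, minus strand: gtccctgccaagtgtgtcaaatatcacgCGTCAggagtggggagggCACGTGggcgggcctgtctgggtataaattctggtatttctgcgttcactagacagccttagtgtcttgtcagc
Plin2, chr5:106228999-106229118, minus strand: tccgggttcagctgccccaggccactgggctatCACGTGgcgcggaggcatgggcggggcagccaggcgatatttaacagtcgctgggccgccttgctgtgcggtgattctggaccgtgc
Apoa4 and Fgf21 have a CREB motif within the printed stretch, Fgf21 and Plin2 an E-box, and Cpt1a neither.

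Levels between genes were compared on the deposited FPKM scale, which divides by gene length. Cpt1a had the highest median over the 12 livers, at 229 FPKM (range 106 to 274), followed by Apoa4 at 200 (66.6 to 327) and Bdh1 at 181 (117 to 214). Plin2 at 90.6 (43.8 to 170), Angptl4 at 62.6 (30.4 to 90.1), Pdk4 at 50.1 (17.2 to 132), Fgf21 at 32.3 (7.49 to 56.0) and Ppara at 23.6 (11.9 to 33.4) followed. The ranges of every pair of neighbours in this order overlapped. Within livers, Bdh1 was above Plin2 in all 12 and Plin2 above Angptl4 in 11, and Pdk4 was above Fgf21 in 10. The order was less regular for Apoa4 over Bdh1 (8 of 12 livers), Fgf21 over Ppara (7), Cpt1a over Apoa4 (6) and Angptl4 over Pdk4 (6). The genes also differed in how much they varied among livers of 1 group. The SD of log2 CPM (counts scaled to a common library size after TMM normalization) within groups was 0.91 for Fgf21, above that of 94.4% of all tested genes, and 0.74 for Pdk4, above 89.6%. It was 0.51 for Plin2, 0.49 for Ppara, 0.47 for Apoa4 and 0.43 for Angptl4, all above the median of 0.292 over all tested genes, and 0.25 for Bdh1 and 0.21 for Cpt1a, below it.

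**Figure D1:**
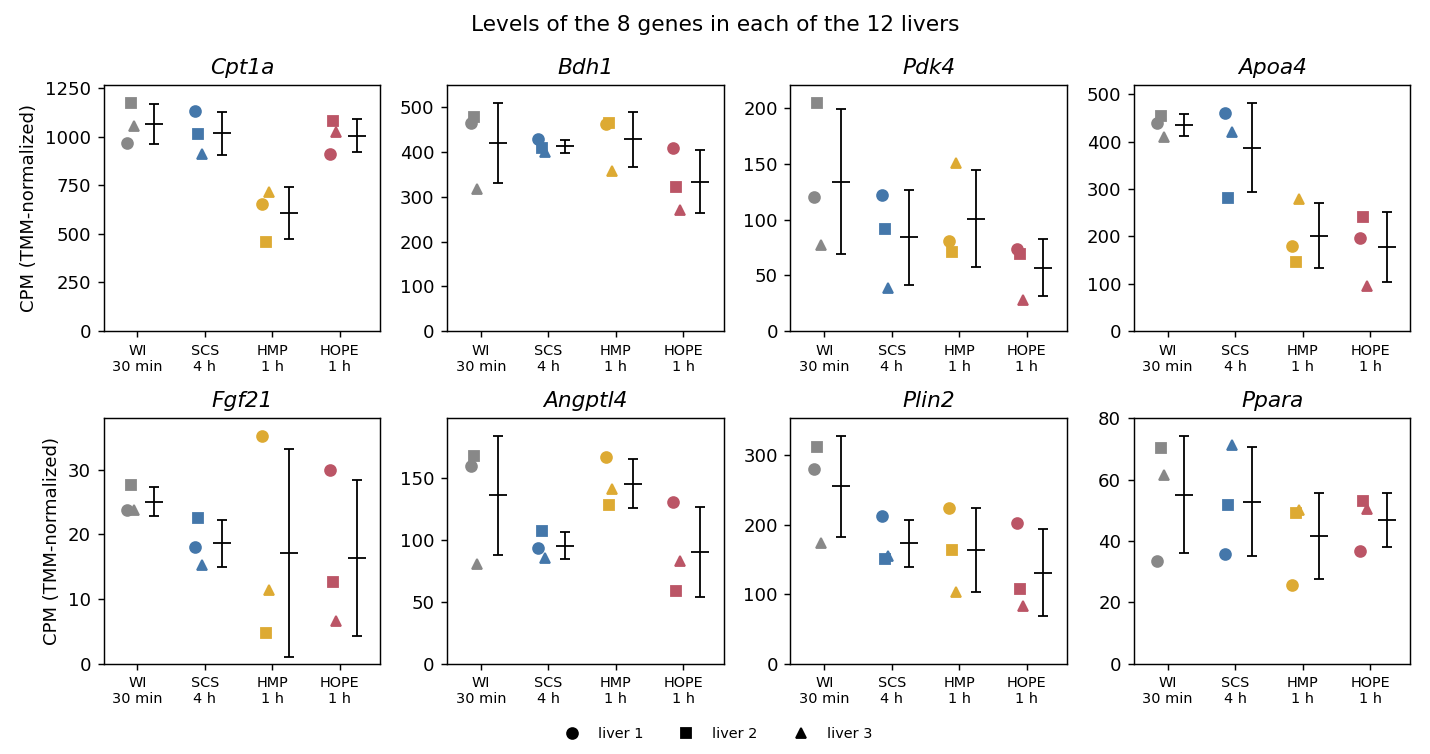
Levels of the 8 genes in TMM-normalized CPM (vertical axis from 0) in each liver of the 4 groups (horizontal axis), with circles, squares and triangles for livers 1, 2 and 3 of a group and bars for the mean ± SD of 3 livers. The HMP 1 h livers lie below all others for Cpt1a, the 6 perfused livers lie below the 6 unperfused livers for Apoa4, and Fgf21 spreads from 4.68 to 35.2 CPM within HMP 1 h.

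Ppara, the receptor itself (chromosome 7, 126619196 to 126681752 in Rnor_6.0, plus strand), was measured at 33.6, 70.3 and 61.6 CPM in the WI 30 min livers, at 35.7, 51.7 and 71.3 CPM in SCS 4 h, at 25.5, 49.2 and 50.3 CPM in HMP 1 h and at 36.7, 53.2 and 50.4 CPM in HOPE 1 h. Liver 1 was the lowest of its group in all 4 groups, and the groups overlapped throughout. The difference of perfused from unperfused livers was -0.29 on the log2 scale (95% interval -0.80 to 0.22), and its adjusted p was 0.545. Among the 16 tested partners and regulators of PPARα, which include its dimer partner Rxra and the coactivator Ppargc1a, 0 were called in this comparison, 1 had an unadjusted p under 0.05 and DESeq2 called 0. Over all tested genes these shares were 1.02%, 17.7% and 5.33%. The median difference of the 16 was 0.13. Rxra differed by 0.03 (SE 0.12) and Ppargc1a by 0.20 (SE 0.42).

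Cpt1a, the outer-membrane carnitine palmitoyltransferase that sets the entry of long-chain fatty acids into mitochondria (chromosome 1, 218569510 to 218629678, plus strand), had its low values in the livers perfused without oxygenation. It stood at 968, 1172 and 1054 CPM in WI 30 min, at 1130, 1015 and 909 CPM in SCS 4 h, at 651, 456 and 715 CPM in HMP 1 h and at 912, 1079 and 1022 CPM in HOPE 1 h. The 3 HMP 1 h livers were below all 9 others, a pattern noticed in these values that 1.8% of all tested genes showed in the same direction. The group mean was 607 CPM ± 135 (SD, n = 3) for HMP 1 h livers, against 1065 CPM ± 102 after WI 30 min, 1018 CPM ± 110 after SCS 4 h and 1004 CPM ± 84.8 after HOPE 1 h. The log2 difference of HMP 1 h from WI 30 min was -0.81 (SE 0.18, adjusted p = 0.0975 with edgeR and 0.00114 with DESeq2), and from SCS 4 h it was -0.75 (adjusted p = 0.103 with edgeR and 0.00428 with DESeq2). HOPE 1 h stood 0.73 above HMP 1 h (SE 0.18), with an adjusted p of 0.558 with edgeR and 0.062 with DESeq2. These comparisons did not pass the edgeR threshold. HOPE 1 h differed from WI 30 min by -0.08 (95% interval -0.47 to 0.30) and SCS 4 h by -0.06 (-0.45 to 0.32). Without HMP 1 h liver 1 and HOPE 1 h liver 3 the difference of HMP 1 h from WI 30 min was -0.85, with an edgeR adjusted p of 0.129. Its partner inside the mitochondrion, Cpt2, differed by -0.24 (SE 0.11, adjusted p = 0.275) between perfused and unperfused livers, where Cpt1a differed by -0.41 (SE 0.13, adjusted p = 0.131 with edgeR and 0.0245 with DESeq2).

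Bdh1, the mitochondrial dehydrogenase that turns acetoacetate into 3-hydroxybutyrate (chromosome 11, 72578533 to 72614176, minus strand), varied little. Its levels were 465, 478 and 318 CPM in WI 30 min, 429, 410 and 401 CPM in SCS 4 h, 463, 465 and 357 CPM in HMP 1 h and 410, 322 and 270 CPM in HOPE 1 h. The lowest 2 livers were HOPE 1 h liver 3 and WI 30 min liver 3, and the groups overlapped in every comparison. Its largest difference between 2 groups was -0.36 for HOPE 1 h against HMP 1 h (SE 0.19, adjusted p = 0.712).

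Of the other 9 tested genes of ketone body synthesis, use and transport, 1 was called in perfused against unperfused livers (1.02% of all tested genes). Their median difference was -0.18, and 8 had a negative difference, as 45.3% of all tested genes had. The called gene was Acat1, the mitochondrial thiolase that makes acetoacetyl-CoA. Its level was 470, 401 and 326 CPM in WI 30 min, 502, 402 and 448 CPM in SCS 4 h, 278, 218 and 257 CPM in HMP 1 h and 350, 227 and 285 CPM in HOPE 1 h, and it fell by 0.66 on the log2 scale (SE 0.13, adjusted p = 0.0446). The call was lost in 11 of the 12 fits that left out 1 liver (each but that without WI 30 min liver 3), where the adjusted p ran from 0.028 to 0.125. The number called among all tested genes ran from 0 to 166 over these fits, against 140 with all livers. Without HMP 1 h liver 1 and HOPE 1 h liver 3 together, the difference of Acat1 was -0.69 and its adjusted p 0.0991. Only HOPE 1 h liver 1 among the perfused livers reached the lowest unperfused liver, WI 30 min liver 3. Oxct1, the enzyme with which other tissues use ketone bodies, differed by 0.24 (SE 0.26) and the transporter gene Slc16a1 by -0.13 (SE 0.23). In the 6 comparisons of 2 groups edgeR called 0 of the 9, with 0 to 3 at an unadjusted p under 0.05, and DESeq2 called 0 to 2. Over all tested genes, 4.77% to 14.5% had such a p in these comparisons and DESeq2 called 0.11% to 3.06%.

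Pdk4, the kinase that inhibits pyruvate dehydrogenase and so spares glucose (chromosome 4, 30546664 to 30556814, minus strand), was among the most variable of the 8 within groups. It was measured at 121, 205 and 76.9 CPM in WI 30 min, at 122, 91.3 and 38.5 CPM in SCS 4 h, at 81.1, 70.7 and 150 CPM in HMP 1 h and at 73.9, 68.8 and 27.5 CPM in HOPE 1 h. The HOPE 1 h livers lay below the WI 30 min livers without overlap, as 7.42% of all tested genes did. This difference was -1.24 on the log2 scale (SE 0.50), with an adjusted p of 0.561, so it was not called. The other kinases of the family, Pdk1, Pdk2 and the scarce Pdk3, differed by 0.05 (SE 0.10), 0.03 (SE 0.10) and 0.37 (SE 0.28) between perfused and unperfused livers, where Pdk4 differed by -0.49 (SE 0.35). Pdk3, named after its values were seen, ranged from 0.69 to 2.31 CPM.

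Fgf21, a hormone that the liver secretes in fasting and in amino acid shortage (chromosome 1, 101595579 to 101596822, minus strand), was uniform in unperfused livers and scattered in perfused livers. It stood at 23.8, 27.6 and 23.8 CPM in WI 30 min and at 18.1, 22.5 and 15.2 CPM in SCS 4 h, which lay below WI 30 min without overlap, as 5.86% of all tested genes did. It stood at 35.2, 4.68 and 11.3 CPM in HMP 1 h and at 29.9, 12.6 and 6.66 CPM in HOPE 1 h. Liver 1 of each perfused group was above every unperfused liver and livers 2 and 3 were below all of them, with a range of 7.52-fold in HMP 1 h and 4.49-fold in HOPE 1 h. No comparison of group means approached the threshold, with a lowest unadjusted p of 0.295. HOPE 1 h differed from HMP 1 h by -0.07 (95% interval -1.40 to 1.27), and by 1.02 without HMP 1 h liver 1, so that 1 liver set the sign. The co-receptor gene Klb was not in the table. Of the 10 tested target genes of Atf4, the factor of amino acid shortage, 0 were called in perfused against unperfused livers, 9 had a positive difference and the median was 0.29 (3 at an unadjusted p under 0.05, 2 called by DESeq2). Over all tested genes, 17.7% had such a p, DESeq2 called 5.33% and 45.3% had a negative difference. Ddit3 differed by 0.21 (SE 0.19) and Trib3 by -0.38 (SE 0.20).

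Angptl4, a secreted inhibitor of lipoprotein lipase (chromosome 7, 18627808 to 18634079, minus strand), stood at 160, 168 and 80.8 CPM in WI 30 min, at 93.9, 108 and 85.4 CPM in SCS 4 h, at 168, 129 and 141 CPM in HMP 1 h and at 131, 58.7 and 82.7 CPM in HOPE 1 h. All 3 HMP 1 h livers were above all 3 SCS 4 h livers, as 7.29% of all tested genes were, and the other groups overlapped. The difference of HMP 1 h from SCS 4 h was 0.61 (SE 0.30, adjusted p = 0.378). HOPE 1 h differed from HMP 1 h by -0.69 (SE 0.30, adjusted p = 0.646). In perfused against unperfused livers the difference was 0.01 (95% interval -0.45 to 0.47), while its relative Angptl8, which also acts on lipoprotein lipase, differed by 0.09 (SE 0.23). Angptl4 is also a hypoxia target gene in many tissues. Of the 10 tested hypoxia target genes, 0 were called in perfused against unperfused livers, 5 had a positive and 5 a negative difference, and the median was 0.02 (2 at an unadjusted p under 0.05, 0 called by DESeq2). The shares over all tested genes were 45.3% with a negative difference, 17.7% with such a p and 5.33% called by DESeq2. In HMP 1 h against SCS 4 h these 10 genes had a median of 0.17. Of them, 5 were negative (45.8% of all tested genes) and 3 had such a p (14.5%). In HOPE 1 h against HMP 1 h the median was -0.12, with 6 negative (51%) and 1 at such a p (7.48%). Both edgeR and DESeq2 called 0 of them in these comparisons.

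Apoa4, the apolipoprotein of triglyceride-rich particles that the liver makes in fasting (chromosome 8, 50537009 to 50539376, plus strand), was the member with the clearest difference. It was measured at 439, 454 and 409 CPM in WI 30 min, at 460, 281 and 420 CPM in SCS 4 h, at 180, 146 and 279 CPM in HMP 1 h and at 197, 240 and 95.2 CPM in HOPE 1 h. All 6 perfused livers lay below all 6 unperfused livers, as 1.21% of all tested genes did, but the nearest of them, HMP 1 h liver 3 at 279 CPM and SCS 4 h liver 2 at 281 CPM, were almost level. The group means were 434 CPM ± 23.1 (SD, n = 3) after WI 30 min, 387 CPM ± 94.2 after SCS 4 h, 201 CPM ± 69.0 after HMP 1 h and 177 CPM ± 74.3 after HOPE 1 h. Apoa4 fell by 1.12 on the log2 scale in perfused against unperfused livers (SE 0.23, adjusted p = 0.0457 with edgeR and 0.000188 with DESeq2), to 0.461 of the unperfused level. It was the only member called, among 0.753% of all tested genes that were called lower. The edgeR call was lost in 10 of the 12 fits that left out 1 liver (each but those without HMP 1 h liver 3 or HOPE 1 h liver 2), where the adjusted p ran from 0.0383 to 0.125 and the difference from -1.27 to -0.97. Over these fits the number called among all tested genes ran from 0 to 166, against 140 with all livers. Without HMP 1 h liver 1 and HOPE 1 h liver 3 together, the difference of Apoa4 was -0.92, with an adjusted p of 0.0846. Between the perfused groups, HOPE 1 h differed from HMP 1 h by -0.18 (95% interval -0.88 to 0.51). A gene on the opposite strand, AABR07073400.1, overlaps Apoa4 over 690 bases and had 0 counts in all livers, and whether the counting used strand is not stated.

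Apoa4 lies in a cluster of apolipoprotein genes with Apoa1, Apoc3 and Apoa5. Apoa1, the main protein of high-density lipoprotein, ranged from 1781 to 3723 CPM in unperfused and from 1185 to 2184 CPM in perfused livers and differed by -0.72 (SE 0.19, adjusted p = 0.0925 with edgeR and 0.00483 with DESeq2). Apoa5 differed by -0.20 (SE 0.10, adjusted p = 0.335) and Apoc3 by 0.02 (SE 0.12, adjusted p = 0.934). Creb3l3, the liver transcription factor that acts with PPARα on several of these genes, differed by -0.37 (SE 0.10, adjusted p = 0.0926 with edgeR and 0.00311 with DESeq2).

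Plin2, the coat protein of hepatocyte lipid droplets (chromosome 5, 104984414 to 105010857, minus strand), stood at 279, 312 and 173 CPM in WI 30 min, at 212, 151 and 155 CPM in SCS 4 h, at 224, 164 and 103 CPM in HMP 1 h and at 202, 107 and 82.8 CPM in HOPE 1 h. Every group overlapped with every other, and WI 30 min livers 1 and 2 were the highest 2 of all livers. The difference of HOPE 1 h from WI 30 min was -0.96 (SE 0.35, adjusted p = 0.522), and that of perfused from unperfused livers -0.52 (SE 0.25, adjusted p = 0.304). Plin5, the droplet coat that contacts mitochondria, differed by -0.63 (SE 0.22, adjusted p = 0.181) between perfused and unperfused livers, and Plin4 did not pass the filter on low counts. The adipocyte genes Plin1, Lep, Adrb3, Adipoq and Retn were at 0 counts in all livers.

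Over the 8 genes, edgeR called 0 in each of the 6 comparisons of 2 groups, where it called 0% of all tested genes as well. It called 1 (Apoa4) in perfused against unperfused livers, 0 in the 9 cold-preserved livers against WI 30 min (0.00731% of all tested genes) and 0 in the test of any difference between the 4 groups (0%). At an unadjusted p under 0.05 the number of members was 0 for SCS 4 h against WI 30 min (4.77% of all tested genes), 2 for HMP 1 h against WI 30 min (13.8%), 3 for HOPE 1 h against WI 30 min (8.57%), 2 for HMP 1 h against SCS 4 h (14.5%), 1 for HOPE 1 h against SCS 4 h (10.9%) and 2 for HOPE 1 h against HMP 1 h (7.48%). It was 2 for perfused against unperfused livers (17.7%), 3 for cold-preserved livers against WI 30 min (7.96%) and 2 for any difference (12.3%). These comparisons share livers and are no independent evidence of each other.

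DESeq2, which called more genes throughout, called Cpt1a and Apoa4 in HMP 1 h against WI 30 min (2.83% of all tested genes), in perfused against unperfused livers (5.33%) and for any difference (3.93%). It called Apoa4 alone in HOPE 1 h against WI 30 min (0.65%) and in HOPE 1 h against SCS 4 h (1.44%), and Cpt1a alone in HMP 1 h against SCS 4 h (3.06%). It called 0 members in SCS 4 h against WI 30 min (0.11%), HOPE 1 h against HMP 1 h (0.117%) and cold-preserved livers against WI 30 min (0.519%). Cpt1a and Apoa4 were also the genes whose livers did not overlap downwards in HMP 1 h against WI 30 min (8.45% of all tested genes) and against SCS 4 h (10.6%), as was Apoa4 in HOPE 1 h against SCS 4 h (10.3%), while Cpt1a was higher in HOPE 1 h than in HMP 1 h without overlap (6.22%).

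Most differences were negative whatever their size. The number of members with a negative difference was 8 for SCS 4 h against WI 30 min (47.7% of all tested genes), 6 for HMP 1 h against WI 30 min (46.6%), 8 for HOPE 1 h against WI 30 min (46.7%), 5 for HMP 1 h against SCS 4 h (45.8%), 8 for HOPE 1 h against SCS 4 h (44.9%), 6 for HOPE 1 h against HMP 1 h (51%), 7 for perfused against unperfused livers (45.3%) and 8 for cold-preserved livers against WI 30 min (47.6%). Some of these differences were near 0, such as Bdh1 at -0.03 and Ppara and Cpt1a at -0.06 in SCS 4 h against WI 30 min. The members' median difference in perfused against unperfused livers was -0.39, where that of all tested genes was 0.03. The 8 genes were chosen with earlier results of these data known, and some vary together, so these counts are a description and not a test.

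**Figure D2:**
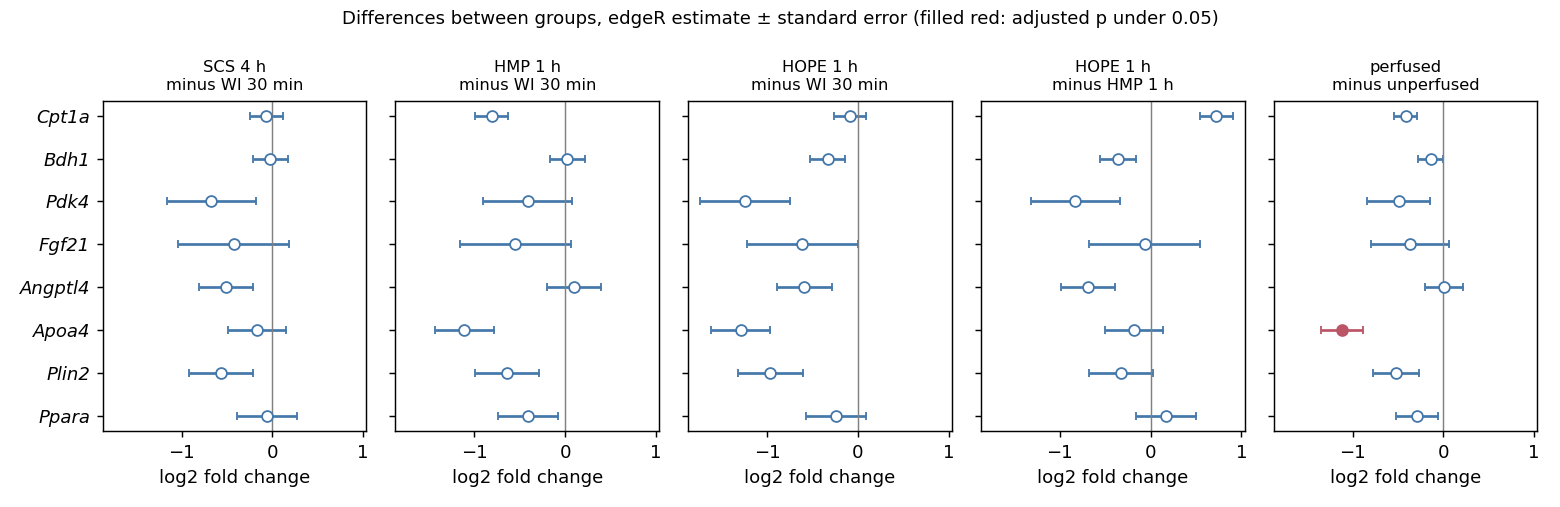
Log2 fold changes of the 8 genes (horizontal axis) in 5 comparisons, as the edgeR estimate with its standard error. The filled red point is Apoa4 in perfused against unperfused livers, at -1.12, and all open points had an adjusted p of 0.05 or more, among them Cpt1a at -0.81 in HMP 1 h against WI 30 min and at 0.73 in HOPE 1 h against HMP 1 h.

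The other target genes of PPARα, among them enzymes of peroxisomal and mitochondrial fatty acid oxidation, included 9 that fell in the perfused livers. Of the 27 tested, these 9 were called lower in perfused against unperfused livers and 0 higher, where 0.753% of all tested genes were called lower. The list was chosen with earlier results of these data known, so this share is a description and not a test. A negative difference was seen in 21 of the 27 (45.3% of all tested genes) and the median was -0.47. An unadjusted p under 0.05 was found for 20 (17.7% of all tested genes), and DESeq2 called 16 (5.33%). Cyp4a1, which omega-hydroxylates fatty acids, fell by 0.90 on the log2 scale (SE 0.15, adjusted p = 0.0273), from 624 to 1133 CPM in unperfused to 374 to 714 CPM in perfused livers. Hadha and Hadhb, the subunits of the mitochondrial trifunctional protein, fell by 0.54 (SE 0.09, adjusted p = 0.0273) and 0.71 (SE 0.13, adjusted p = 0.0321), and the livers of the compared sides overlapped for neither. Hadha ranged from 500.2 to 678 CPM in unperfused and from 378 to 448 CPM in perfused livers.

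Vnn1, a pantetheinase that is among the most PPARα-dependent genes of the liver, fell by 1.38 (SE 0.24, adjusted p = 0.0321), and its 6 perfused livers, at 29.3 to 99.0 CPM, lay below the 6 unperfused livers, at 118 to 245 CPM. Ehhadh, the peroxisomal bifunctional enzyme, fell by 1.29 (SE 0.25, adjusted p = 0.0429). Acot1, a cytosolic acyl-CoA thioesterase, fell by 2.86 (SE 0.59, adjusted p = 0.0457) and ranged from 9.07 to 73.8 CPM in unperfused and from 1.06 to 8.13 CPM in perfused livers. It has close paralogs (Acot2, Acot3 and Acot4), as Cyp4a1 has, between which the authors' counting could have split reads. The remaining 3 called genes, named after their values were seen, were Acadl (-0.64), Mlycd (-0.45) and Acaa1a (-0.58). Fabp1, the fatty acid binding protein, differed by -0.57 (SE 0.14, adjusted p = 0.0711). Acot1, Vnn1, Hadha, Hadhb and Mlycd were the called genes whose livers did not overlap, as 1.21% of all tested genes did in this direction. Since it was read among called genes, the lack of overlap is no separate evidence.

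The count of 9 depended on single livers. It ran from 0 to 12 in the fits that left out 1 liver, and was 0 without WI 30 min liver 1 or 2, SCS 4 h liver 1 or 2, or HOPE 1 h liver 1 or 3, and 1 without SCS 4 h liver 3 or HMP 1 h liver 2. It was 5 without HMP 1 h liver 3, 3 without HOPE 1 h liver 2, and 5 without HMP 1 h liver 1 and HOPE 1 h liver 3 together. Of the 9 genes, Cyp4a1 (-0.997, adjusted p = 0.037), Vnn1 (-1.56, adjusted p = 0.0413) and Mlycd (-0.50, adjusted p = 0.0413) were among those 5, while the other 6 differed by -3.58 to -0.54 without both livers, with adjusted p from 0.0515 to 0.0906. Each of the 9 calls was lost in 7 to 11 of the 12 fits that left out 1 liver. The number called among all tested genes, 140 with all livers, ran from 0 to 166 over the same fits. It was 0 to 23 where 0 of these targets were called, so the loss of calls in those fits was not particular to them. In other fits the targets lost more. Without HMP 1 h liver 3, 137 genes stayed called but 5 targets. Without HMP 1 h liver 2 the numbers were 44 and 1, without SCS 4 h liver 3 36 and 1, and without HOPE 1 h liver 2 64 and 3. Without WI 30 min liver 3 they were 166 and 12, and without HMP 1 h liver 1 114 and 11. The list's median difference ran from -0.56 to -0.41 over all of these fits. In the comparisons of 2 groups 0 of the 27 were called by edgeR, and the median was -0.55 for HMP 1 h against WI 30 min, -0.28 for HOPE 1 h against WI 30 min, -0.68 for HMP 1 h against SCS 4 h, -0.44 for HOPE 1 h against SCS 4 h, -0.02 for SCS 4 h against WI 30 min and 0.22 for HOPE 1 h against HMP 1 h. DESeq2 called 13, 1, 14, 10, 0 and 0 of them in the same order (2.83%, 0.65%, 3.06%, 1.44%, 0.11% and 0.117% of all tested genes).

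**Figure D3:**
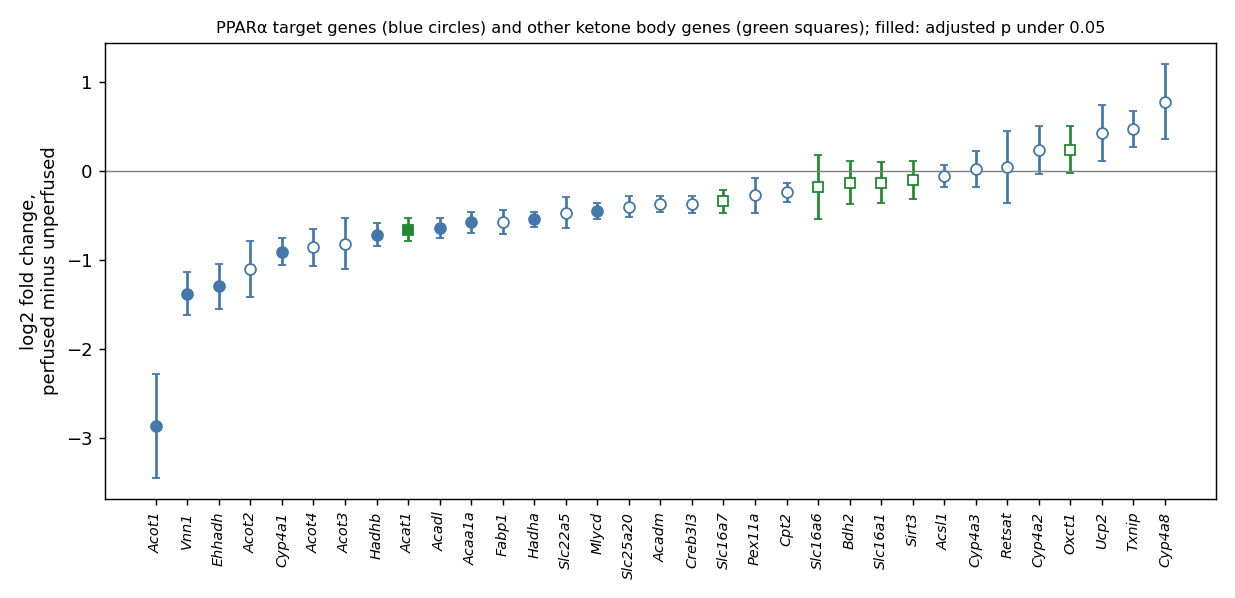
Log2 fold changes of perfused against unperfused livers (vertical axis, edgeR estimate ± standard error) for 26 tested target genes of PPARα (blue circles) and 7 tested genes of ketone body synthesis, use and transport (green squares), ordered by size, with filled symbols for an adjusted p under 0.05. The 10 filled symbols are all below 0, from Acot1 at -2.86 to Mlycd at -0.45, and the genes above 0 include Cyp4a8 and Txnip, both open.

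The lists for relatives of the members and for other programmes had 0 genes called in perfused against unperfused livers. Of the 25 tested relatives of the members, 13 had a negative difference and the median was -0.02. The 7 fed-state lipogenic genes had 1 negative difference and a median of 0.33, with Fasn at 0.53 (SE 0.22) and Srebf1 at 0.35 (SE 0.32). The 10 glucocorticoid target genes had 9 positive differences and a median of 0.34, with Tsc22d3 at 0.45 (SE 0.50) and Fkbp5 at 0.41 (SE 0.54). The 2 perfused groups were not alike in these lists. Against SCS 4 h, the glucocorticoid median was 0.59 in HMP 1 h (10 positive) and 0.09 in HOPE 1 h (6 positive). The lipogenic median was 0.74 and 0.20 in the same order. All 10 glucocorticoid target genes had a negative difference of HOPE 1 h from HMP 1 h (51% of all tested genes), with a median of -0.25. In perfused against unperfused livers the 14 clock genes had 11 positive differences and a median of 0.21, with Per1 at 0.54 (SE 0.51). At an unadjusted p under 0.05 the numbers were 7, 3, 2 and 0 in these 4 lists, and DESeq2 called 4, 2, 2 and 0. Over all tested genes these shares were 17.7% and 5.33%, and 45.3% had a negative difference. The clock genes differed more between single groups. At an unadjusted p under 0.05 stood 7 of the 14 in HOPE 1 h against HMP 1 h (7.48% of all tested genes), with a median of 0.51. The number was 6 for HOPE 1 h against WI 30 min (8.57%) and 4 for HMP 1 h against SCS 4 h (14.5%). It was 3 for SCS 4 h against WI 30 min (4.77%), 1 for HOPE 1 h against SCS 4 h (10.9%) and 0 for HMP 1 h against WI 30 min (13.8%).

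No marker list of other cells had a gene called by edgeR in the comparison of perfused with unperfused livers, but their levels were uneven. All 9 tested Kupffer cell markers and all 9 sinusoidal endothelial markers had a positive difference in perfused against unperfused livers, with medians of 0.60 and 0.53, as did 9 of 10 stellate cell markers (median 0.45) and 6 of 7 bile duct cell markers (0.48), while 7 of 8 erythrocyte markers had a negative difference (median -0.60). At an unadjusted p under 0.05 the numbers were 5, 3, 4, 0 and 1, and DESeq2 called 0, 0, 2, 0 and 1. Of all tested genes, 17.7% had such a p, DESeq2 called 5.33% and 45.3% had a negative difference. Without HMP 1 h liver 1 and HOPE 1 h liver 3 the medians were 0.10 for Kupffer cell markers (6 of 9 positive), 0.09 for sinusoidal endothelial markers (7 of 9), 0.10 for stellate cell markers (8 of 10) and 0.01 for bile duct cell markers (4 of 7). Those livers were set apart in part for their high Kupffer cell and sinusoidal endothelial sums. Lower medians of these lists without them therefore follow from that choice and are no separate result. Without both livers the erythrocyte median was -1.08, with all 8 negative and 1 called. The summed Kupffer cell markers ranged from 405 to 514 CPM in WI 30 min livers, from 571 to 638 CPM in SCS 4 h livers, from 501 to 1521 CPM in HMP 1 h livers and from 466 to 987 CPM in HOPE 1 h livers. The summed sinusoidal endothelial markers ranged from 463 to 505 CPM, 478 to 663, 511 to 1062 and 463 to 1185 in the same order, and stellate cell markers from 402 to 517, 495 to 582, 472 to 1108 and 594 to 877. The summed erythrocyte markers ranged from 3439 to 4658 CPM in WI 30 min livers, from 575 to 1803 CPM in SCS 4 h livers, from 267 to 2580 CPM in HMP 1 h livers and from 1220 to 1860 CPM in HOPE 1 h livers, so that the unperfused SCS 4 h livers were also below the WI 30 min livers. No marker of these lists was at 0 in all livers. Of the 4 tested adipocyte markers, 2 had a positive difference, and the median was 0.10 (-0.08 without both livers). The 9 hepatocyte markers had 3 negative differences and a median of 0.03 (0.11 without both livers). Fewer hepatocytes and less RNA per hepatocyte cannot be told apart in whole tissue, and the part of these markers in the results was not tested beyond leaving out HMP 1 h liver 1 and HOPE 1 h liver 3.

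Which members varied together from liver to liver was described by Pearson's r of log2 CPM over the 12 livers, with permutation p-values adjusted over the 28 pairs of members. Bdh1 and Plin2 formed the only pair that passed (r = 0.827, permutation p = 0.0009, adjusted p = 0.0252, Spearman's rho 0.79). Their r was 0.866 without the 2 livers farthest from the median of Bdh1 and 0.925 for the deviations from the group means. Spearman's rho passed for this pair and for Bdh1 with Angptl4 (rho 0.783, r = 0.733). Cpt1a and Apoa4, the members that DESeq2 called, had an r of 0.484 with each other (permutation p = 0.109, adjusted p = 0.279), and Ppara had no positive r above 0.272 with any of the other members.

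The livers also differed widely in 2 clock genes with opposite daily phases, Arntl and Dbp, which were chosen for this comparison after their levels were seen. Arntl stood at 32.2, 37.9 and 10.6 CPM in WI 30 min, at 10.8, 8.5 and 6.3 CPM in SCS 4 h, at 36.2, 34.0 and 13.0 CPM in HMP 1 h and at 19.9, 4.7 and 1.8 CPM in HOPE 1 h. Dbp stood at 8.1, 7.2 and 84.1 CPM, 51.5, 96.6 and 63.0 CPM, 7.9, 13.6 and 84.7 CPM, and 37.8, 185 and 174 CPM in the same livers. The groups were therefore not alike in these genes, with all SCS 4 h livers low in Arntl and 2 of 3 WI 30 min and HMP 1 h livers high. The time of day at procurement is not stated.

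Bdh1, Angptl4 and Plin2 were higher in livers with more Arntl, with r of 0.866, 0.831 and 0.81 (adjusted permutation p = 0.00288, 0.00288 and 0.00357 over the 16 pairs of a member with either gene), and lower in livers with more Dbp, with r of -0.855, -0.84 and -0.84 (adjusted permutation p = 0.00288 for each). The adjustment does not cover the choice of Arntl and Dbp. How many of all tested genes follow Arntl or Dbp as closely was not computed, so these r are not shown to be particular to the members. Spearman's rho with Arntl was 0.832, 0.881 and 0.776, and with Dbp -0.853, -0.804 and -0.895. The r without the 2 livers farthest from the median was 0.73, 0.874 and 0.641 with Arntl and -0.825, -0.755 and -0.783 with Dbp. For deviations from the group means, r with Arntl was 0.957 for Bdh1 and 0.945 for Plin2 (exact permutation within groups, p = 0.00154 for both) and 0.693 for Angptl4 (p = 0.115). These p-values take the livers of a group as interchangeable. Liver 3 had the lowest Arntl and the lowest Bdh1 of its group in all 4 groups, an order that these p-values do not account for. Pdk4 had an r of 0.677 with Arntl (adjusted permutation p = 0.0384) that rested on 2 livers, since it was 0.297 without them, and its Spearman's rho of 0.608 did not pass (adjusted permutation p = 0.0921).

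Apoa4, Cpt1a, Fgf21 and Ppara did not pass with either clock gene, and the r of Apoa4 was 0.281 with Arntl and -0.196 with Dbp. Without HMP 1 h liver 1 and HOPE 1 h liver 3, the r with Arntl was 0.743 for Bdh1 (adjusted permutation p = 0.052), 0.875 for Angptl4 (0.0179) and 0.697 for Plin2 (0.0683), and the r with Dbp was -0.852, -0.797 and -0.821 (adjusted permutation p = 0.023 for each). With the Arntl level as a covariate, the difference of Apoa4 between perfused and unperfused livers was -1.10 (adjusted p = 0.0625).

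**Figure D4:**
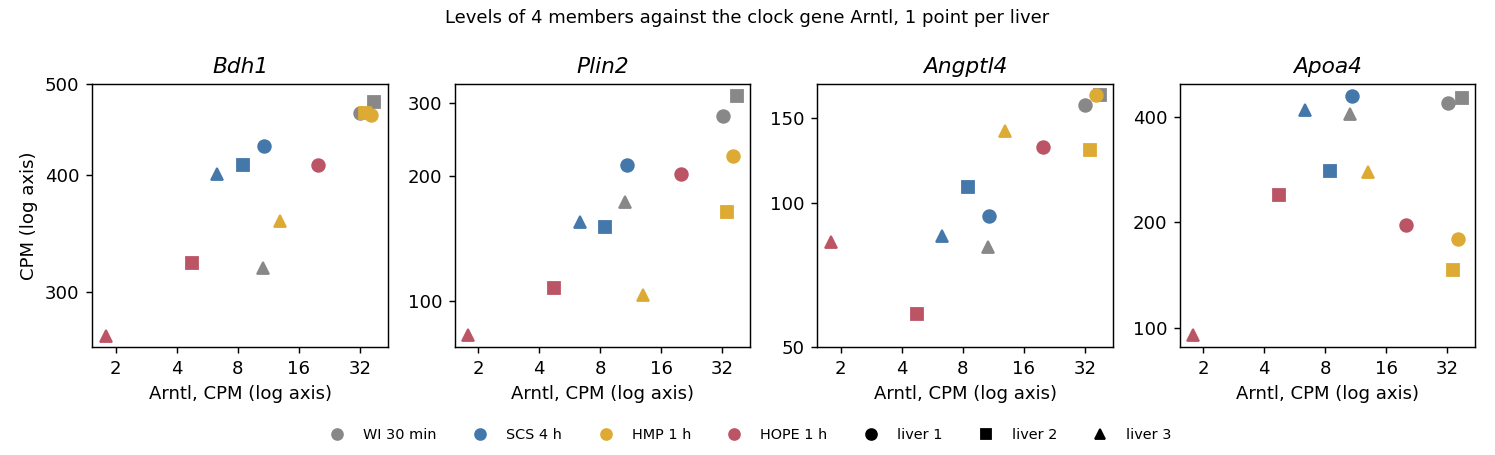
Levels of Bdh1, Plin2, Angptl4 and Apoa4 (vertical axes) against the level of Arntl (horizontal axes), all in CPM on log axes, with 1 point per liver, colours for the 4 groups and shapes for livers 1 to 3. Bdh1, Plin2 and Angptl4 rise with Arntl (r = 0.866, 0.81 and 0.831), while Apoa4 has an r of 0.281. The 6 perfused livers lie below the 6 unperfused livers for Apoa4, the nearest being HMP 1 h liver 3 at 279 CPM and SCS 4 h liver 2 at 281 CPM.

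The genes whose pattern over the 12 livers was most like that of each member were found by Pearson's r of log2 CPM, as a description without a test over all tested genes. For Cpt1a they were Uchl5 (r = 0.941), Ptpn11 (0.924) and Cstf2t (0.920), and for Apoa4 Cadm1 (0.897), Rwdd2b (0.895) and Synj2bp (0.892). Bdh1 was closest to Mturn (0.930) and Pgrmc2 (0.917), and Plin2 to Pgrmc2 (0.919), Sphk2 (0.897) and Mtif3 (0.888), so that Pgrmc2, a haem-binding membrane protein, stood near both. Pdk4 was closest to Tec (0.894), Adcy1 (0.874) and Coa4 (0.853). Fgf21 was closest to Palmd (0.904), Aqp7 (0.898), a channel for glycerol, and a gene without a symbol (0.866). Angptl4 was closest to Nanos1 (0.913), LOC500124 (0.894) and AC115255.2 (0.879), which have mean levels of 0.42 to 4.15 CPM, and Ppara to Dgkd (0.876), Lmbrd2 (0.872) and a gene without a symbol (0.844). None of the 8 genes was among the nearest 3 of another.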

How the data were processed

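RNA was sequenced from 12 rat livers, 3 in each of 4 groups taken from the labels. The authors aligned paired-end reads with Hisat2 to the rat genome, which the submitters' processing notes give as Rnor_6.0, and gave raw counts for each gene and liver in the deposited table, while the counting tool and its strand setting were not stated. FPKM were deposited beside them and were used here only to compare levels between genes. The authors' mean normalized counts per comparison (a signal column), log2 fold changes, p-values and adjusted p-values were not used. Every column of liver values matched a sample by name (0 left over).

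The 8 genes and the 16 gene lists (9 for pathways, 7 for cell types) were chosen with earlier results of these data known. Of 33744 genes, 861 had no symbol and 20213 had a count, and the 13687 kept by filterByExpr were tested with the edgeR 4.0.16 quasi-likelihood F test in R 4.3.3 (TMM normalization, 1 mean per group, 8 residual and 3.86 prior degrees of freedom). P-values were adjusted by Benjamini-Hochberg over all tested genes, and genes under 0.05 were called. Total counts were 15262961 to 18343167, and members had at least 75 counts in each liver. Log2 CPM used a prior count of 2. Correlations used 100000 permutations. All 1296 within-group arrangements of livers were enumerated for the exact test. Named genes are the members, the 3 nearest genes of each, a set of 35 genes from the lists and up to 4 called genes per list by p, besides those said to be named afterwards. A few of these genes are not reported here by name, though the counts of their lists hold them. Alternatives were DESeq2 1.42.0, RLE normalization, no mitochondrial genes, no filter, a fit of the compared groups alone, a replicate block, a prior count of 0.5 for correlations, each liver left out, HMP liver 1 and HOPE liver 3 left out and, added after seeing the data, the Arntl level as a covariate, the marker lists without those livers and the called PPARα target genes under each alternative. The pipeline was tested on simulated data.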

Additional observations from a re-analysis of the deposited data

Results flagged for a closer look

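SCS 4 h liver 2 stood apart for Apoa4 among the 6 unperfused livers. It was the lowest, at 281 CPM, where the next was WI 30 min liver 3 at 409 CPM, and this gap was 0.761 of the range of the 6 livers, above the critical value of 0.625. Of 24 groups of livers checked in this way, 1 was marked, and chance marks about 1 in 20. Without this liver the difference of Apoa4 between perfused and unperfused livers was -1.21, with an adjusted p of 0.0892 by edgeR. In that fit edgeR called 2 of all tested genes, against 140 with all livers.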

How the results depend on the processing

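With 3 livers per group, a residual of 8 degrees of freedom and 0 genes called in any pair of groups, the absence of a call says little about the members, above all Fgf21 and Pdk4, whose 95% intervals between 2 groups span more than a log2 unit on each side. Perfusion and hours of cold storage cannot be told apart in the pooled comparison of perfused with unperfused livers. Between single groups, 4 h of storage without perfusion is compared in SCS 4 h against WI 30 min, where Apoa4 differed by -0.17 (SE 0.32). Against SCS 4 h, where perfusion took the place of the last hour of storage, Apoa4 differed by -0.94 in HMP 1 h and -1.13 in HOPE 1 h (SE 0.32 for both). The part of each was not tested. A sign change of a gene that was not called was counted only where it moved by more than 1 standard error.

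DESeq2 called 2 members in HMP 1 h against WI 30 min, 1 in HOPE 1 h against WI 30 min, 1 in HMP 1 h against SCS 4 h, 1 in HOPE 1 h against SCS 4 h, 2 in perfused against unperfused livers and 2 for any difference, where edgeR called 0, 0, 0, 0, 1 and 0. The Apoa4 call in perfused against unperfused livers (1 member) became 0 with HMP 1 h liver 1 and HOPE 1 h liver 3 left out together and 0 with the Arntl covariate, and ran from 0 to 1 over the fits that left out 1 liver. It kept its side of the threshold with RLE normalization, without mitochondrial genes and without a filter, and the fit of only the groups compared has no separate value for it. The PPARα target genes called numbered 9, against 16 with DESeq2, 5 with both livers left out, 3 with the Arntl covariate and 0 to 12 with 1 liver left out. Among all tested genes the number called was 140, against 0 to 166 with 1 liver left out. The pairs of members that passed numbered 1, against 0 with both livers left out and 0 to 4 with 1 liver left out. The median shift of all genes under another scaling stayed under 0.1. The cause of these changes was not tested.

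Over all tested genes the replicate numbers did not pair the livers: deviations of same-numbered livers had a median r of 0.03 (-0.19 to 0.14 over 18 pairs, 1 over 0.1), and 5 of 12 livers correlated best with their own number. Single genes can still follow the number. Liver 3 was the lowest of its group for Arntl and Bdh1 in all 4 groups, as liver 1 was for Ppara. What same-numbered livers share in such genes was not tested. With the replicate block 0 members were called in perfused against unperfused livers, 66 genes in all against 140, and 8 PPARα target genes.

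With the Arntl covariate, differences turned positive for Bdh1 (0.32), Fgf21 (0.28) and Plin2 (0.13) in SCS 4 h against WI 30 min, for Bdh1 (0.12) and Fgf21 (0.13) in HOPE 1 h against WI 30 min, for Bdh1 (0.10), Fgf21 (0.82) and Plin2 (0.58) in HOPE 1 h against HMP 1 h, and for Bdh1 (0.15) and Angptl4 (0.0055) in cold-preserved livers against WI 30 min, and negative for Bdh1 (-0.30) in HMP 1 h against SCS 4 h and Ppara (-0.25) in HOPE 1 h against HMP 1 h. Without HMP 1 h liver 1, Fgf21 was at 1.02 in HOPE 1 h against HMP 1 h (-0.83 to 1.02 with 1 liver left out) and Oxct1 at -0.049 in perfused against unperfused livers (-0.049 to 0.39); without it and HOPE 1 h liver 3, Fgf21 (1.40), Plin2 (0.20), Ppara (-0.17) and Oxct1 (-0.17) turned in the same comparisons. In perfused against unperfused livers Dbp was at -0.35 without HMP 1 h liver 3 (-0.35 to 1.56) and Arntl at -0.68 without HOPE 1 h liver 1 (-0.68 to 0.28).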
